A study of Mus musculus with 12 samples.

Results

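The genes described here are 9 members of the RNA-sensing and interferon-signalling machinery: the interferon regulatory factors Irf1, Irf3, Irf7 and Irf9, the signal transducer Stat2, the cytosolic RNA sensors Ddx58 (RIG-I), Ifih1 (MDA5) and Dhx58 (LGP2), and the endosomal RNA sensor Tlr3. They were chosen by symbol from a table of 54532 gene identifiers, and each symbol had 1 row. The cells were mouse embryonic fibroblasts (MEFs), cells of connective tissue taken from embryos, and their RNA was sequenced in 4 groups of 3 libraries, 12 in all. The groups were CHIP-KO cells and wild-type cells, each either heated for 1 hour at 43 °C or left without heat. CHIP, encoded by Stub1, is a ubiquitin ligase that works with chaperones. The labels give the cells as MEF in every group and do not say how many embryos or lines stand behind either genotype, or whether the 3 libraries of a group are separate cultures, so a p value here speaks of the spread among these libraries alone, and that spread may be technical.

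RIG-I and MDA5 bind viral or misplaced double-stranded RNA in the cytosol and signal through the adaptor MAVS, while LGP2 binds RNA without a signalling domain of its own and tunes the other sensors. TLR3 reads double-stranded RNA in endosomes through the adaptor TICAM1 (TRIF). Both routes activate IRF3 and IRF7, which switch on interferon genes, and secreted interferon then acts through JAK kinases on a complex of IRF9 with STAT2 and a second STAT protein, which binds interferon-stimulated response elements (ISREs). Many of the sensor, IRF and STAT genes are themselves targets of that complex.

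RefSeq start-site windows (GRCm38.p6, 250 bases before to 50 bases after the start) had entries for 8 of the 9 genes, 10 windows in all. They were searched on both strands for the ISRE letters (GAAA, any 2 bases, GAAA), for the letters TTCNNNGAA of the gamma-activated site (GAS, bound by STAT dimers) and for the heat shock element letters (GAA, any 2 bases, TTC, any 2 bases, GAA). The ISRE letters occurred in the windows of Stat2, Ddx58 and Ifih1, 3 of 8 genes, and in 3.99% of the 27025 genes with a window. The GAS letters occurred in Irf1 alone among these genes and in 9.55% of genes with a window. No window of these genes held the heat shock element letters, which occurred in 0.662% of genes. The stretches around the matches are shown because they are the letters that interferon-activated factors read, with the match in capitals, on the strand of the gene. The lines for Ddx58, Ifih1 and Irf1 were added after the search had been seen, and a match is a description of letters, not a shown binding site.
Stat2, chr10:128270251-128270310, plus strand: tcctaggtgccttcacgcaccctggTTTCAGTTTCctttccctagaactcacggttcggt
Ddx58, chr4:40239807-40239830, minus strand: gaggcagTTTCGATTTCctatggc
Ifih1, chr2:62646207-62646230, minus strand: gagaatcGAAACAGAAAccgatct
Irf1, chr11:53769899-53769958, plus strand: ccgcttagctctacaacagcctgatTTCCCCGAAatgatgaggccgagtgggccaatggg
In Stat2 the match began 222 bases before the RefSeq start and in Irf1 90 bases before it, whereas the matches of Ddx58 and Ifih1 began 3 and 33 bases into the transcript. In Stat2 and Ddx58 the ISRE letters are on the opposite strand and so appear as their reverse complement. The RefSeq start of Tlr3 lies 700 bases inside the gene as the deposited table gives it, and the 2 RefSeq starts of Irf9 lie 414 and 1008 bases inside.

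**Figure D1:**
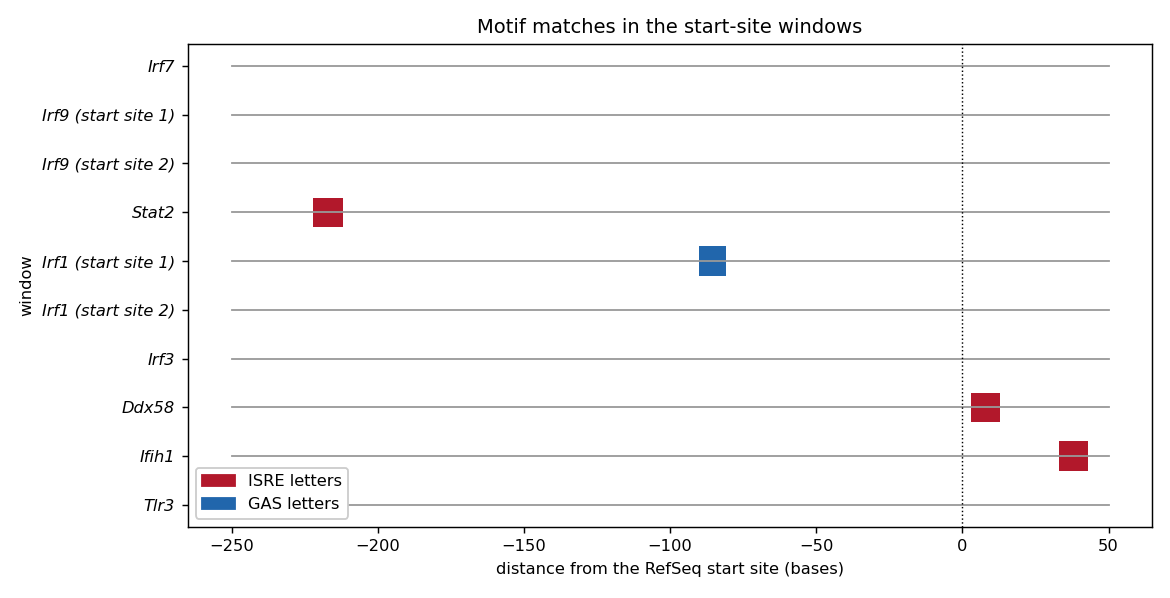
Position of motif matches in the 10 start-site windows of 8 genes, as distance in bases from the RefSeq start (dotted line); red marks the ISRE letters and blue the GAS letters. ISRE matches lie in Stat2, Ddx58 and Ifih1 and the GAS match in Irf1, and the other windows hold none of the searched letters.

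Recovered sequencing depth was 19953642 to 26954112 fragments per library in heated CHIP-KO, 22894580 to 26244726 in unheated CHIP-KO, 17103444 to 19294361 in heated wild type and 15591924 to 20098901 in unheated wild type. Stub1 was measured to check the genotype labels and stood at 1.08 ± 0.0885 FPKM (fragments scaled to gene length and to library total) in heated CHIP-KO cells against 55.4 ± 2.25 FPKM in heated wild-type cells. Without heat it stood at 0.971 ± 0.229 FPKM in CHIP-KO cells against 61.7 ± 3.63 FPKM in wild-type cells (SD, n = 3 each). In both wild-type groups replicate 1 was unlike replicates 2 and 3 (chi-square per degree of freedom 17.6 to 26.7 in pairs with them and 3.49 to 5.09 in the other wild-type pairs). Heated CHIP-KO replicate 1 was also unlike its group (10.4 and 16.6, against 3.40 for replicates 2 and 3), while unheated CHIP-KO pairs lay between 3.39 and 4.29. Of 9 fibroblast markers, 8 reached 1 FPKM in all CHIP-KO libraries of both treatments, 6 in all heated and 5 in all unheated wild-type libraries. Their summed level was 3264 to 3462 FPKM in heated CHIP-KO, 2915 to 3079 FPKM in unheated CHIP-KO, 1845 to 2197 FPKM in heated wild type and 1436 to 1857 FPKM in unheated wild type. The fibroblast surface marker Thy1 averaged 8.73 FPKM in heated and 8.28 FPKM in unheated CHIP-KO cells, against 0.0259 FPKM in heated and 0.0052 FPKM in unheated wild-type cells, so wild-type cells had next to none of it. Some markers went the other way. Vim averaged 492 FPKM in unheated CHIP-KO against 599 FPKM in unheated wild type. With heat, Col3a1 averaged 97.0 FPKM in CHIP-KO against 141 FPKM in wild type, and Pdgfrb 36.1 against 42.7 FPKM. All other means of this list were higher in CHIP-KO. Of 12 macrophage and leukocyte markers, Adgre1, Tyrobp, Siglech and Cd3e were at 0 in every library and Ptprc did not exceed 0.0104 FPKM. The summed level of this list was 11.0 to 12.3 FPKM in heated CHIP-KO, 6.72 to 7.79 FPKM in unheated CHIP-KO, 16.2 to 18.4 FPKM in heated wild type and 6.72 to 7.31 FPKM in unheated wild type, most of it Cd68 and Cd14. In whole cultures such as these, fewer cells of a type and less RNA per cell cannot be told apart.

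The first question was how CHIP-KO fibroblasts differ from wild type in this machinery without heat. Of the 9 genes 8 were higher in CHIP-KO cells at a limma adjusted p under 0.05, and 0 were lower, where 23.9% of 13023 tested genes were called higher and 48.5% in either direction. All 9 had CHIP-KO libraries above every wild-type library, a pattern seen in 30.1% of tested genes. The median log2 change of log2(FPKM + 1) was 2.0, against -0.01 over all genes tested, and 7 of the 9 were at least 2-fold higher. The smallest of these 7 changes was that of Stat2, and 1.53% of tested genes had a more positive one. For Irf1, which was below 2-fold, that share was 7.15%. The log2(FPKM + 1) scale understates changes of genes with low values.

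Irf7 (ENSMUSG00000025498, chromosome 7, positions 141262706 to 141266481, minus strand), the factor that amplifies interferon production and is itself induced by interferon, differed most. Its libraries of replicates 1, 2 and 3 had 55.4, 52.7 and 57.1 FPKM in unheated CHIP-KO cells, against 2.35, 3.14 and 4.23 FPKM in unheated wild-type cells. The groups lay far apart, with 140 to 339 fragments behind each wild-type value. The fitted difference was 3.75 on the log2 scale (SE 0.13, limma adjusted p = 1.77e-09), the 26th largest in size of 13023 genes.

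Irf9 (ENSMUSG00000002325, chromosome 14, positions 55603571 to 55610030, plus strand), the DNA-binding part of the interferon-activated complex, had 28.8, 27.2 and 28.3 FPKM in unheated CHIP-KO cells, against 4.72, 6.42 and 7.40 FPKM in unheated wild-type cells. Its partner Stat2 (ENSMUSG00000040033, chromosome 10, positions 128270559 to 128292849, plus strand) had 50.7, 51.6 and 48.2 FPKM in unheated CHIP-KO cells, against 11.4, 13.5 and 15.9 FPKM in unheated wild-type cells. For both genes every CHIP-KO library lay above every wild-type library, and among the wild-type libraries replicate 1 was the lowest. The log2 changes were 2.04 for Irf9 (SE 0.12, limma adjusted p = 1.01e-07) and 1.82 for Stat2 (SE 0.10, limma adjusted p = 7.60e-08).

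Irf1 (ENSMUSG00000018899, chromosome 11, positions 53770014 to 53778374, plus strand), a factor induced by interferon gamma and inflammatory signals, differed less, with 28.4, 28.1 and 29.0 FPKM in unheated CHIP-KO cells against 16.3, 16.1 and 16.9 FPKM in unheated wild-type cells. Both groups were tight and did not overlap, and the log2 change was 0.76 (SE 0.11, limma adjusted p = 2.22e-04). Irf3 (ENSMUSG00000003184, chromosome 7, positions 44997648 to 45002848, plus strand), the constitutively made factor that is activated by phosphorylation, had 13.2, 13.0 and 12.4 FPKM in unheated CHIP-KO cells against 11.7, 11.2 and 11.7 FPKM in unheated wild-type cells. These groups did not overlap either, but the log2 change of 0.15 (95% interval 0.0028 to 0.29) missed the threshold at limma adjusted p = 0.0863. Without wild-type heated replicate 3, which changes only the shared estimate of spread, it passed at limma adjusted p = 0.0364, and 4 of 24 alternatives in all called it higher.

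Among the sensors, Dhx58 (ENSMUSG00000017830, chromosome 11, positions 100694884 to 100704271, minus strand) had 25.3, 26.8 and 28.3 FPKM in unheated CHIP-KO cells against 2.04, 2.55 and 2.86 FPKM in unheated wild-type cells. Ddx58 (ENSMUSG00000040296, chromosome 4, positions 40203773 to 40239828, minus strand) had 41.1, 39.1 and 40.6 FPKM in unheated CHIP-KO cells against 8.67, 9.23 and 10.1 FPKM in unheated wild-type cells. On the FPKM scale Dhx58 was below Ddx58 in every library of both genotypes. Ifih1 (ENSMUSG00000026896, chromosome 2, positions 62595798 to 62646255, minus strand) had 18.2, 18.0 and 18.0 FPKM in unheated CHIP-KO cells against 4.27, 3.94 and 4.03 FPKM in unheated wild-type cells. Tlr3 (ENSMUSG00000031639, chromosome 8, positions 45395665 to 45411080, minus strand) had 9.32, 8.57 and 8.78 FPKM in unheated CHIP-KO cells against 1.29, 1.23 and 1.39 FPKM in unheated wild-type cells, the lowest level of the 9 genes in both groups. All 4 sensors were separated by genotype in every library. The log2 changes were 3.0 for Dhx58 (limma adjusted p = 1.45e-09), 2.0 for Ddx58 (limma adjusted p = 1.94e-09), 1.91 for Ifih1 (limma adjusted p = 2.29e-10) and 2.10 for Tlr3 (limma adjusted p = 9.73e-10). With a pseudocount of 5, which weighs on low genes, the Tlr3 value was 1.14.

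**Figure D2:**
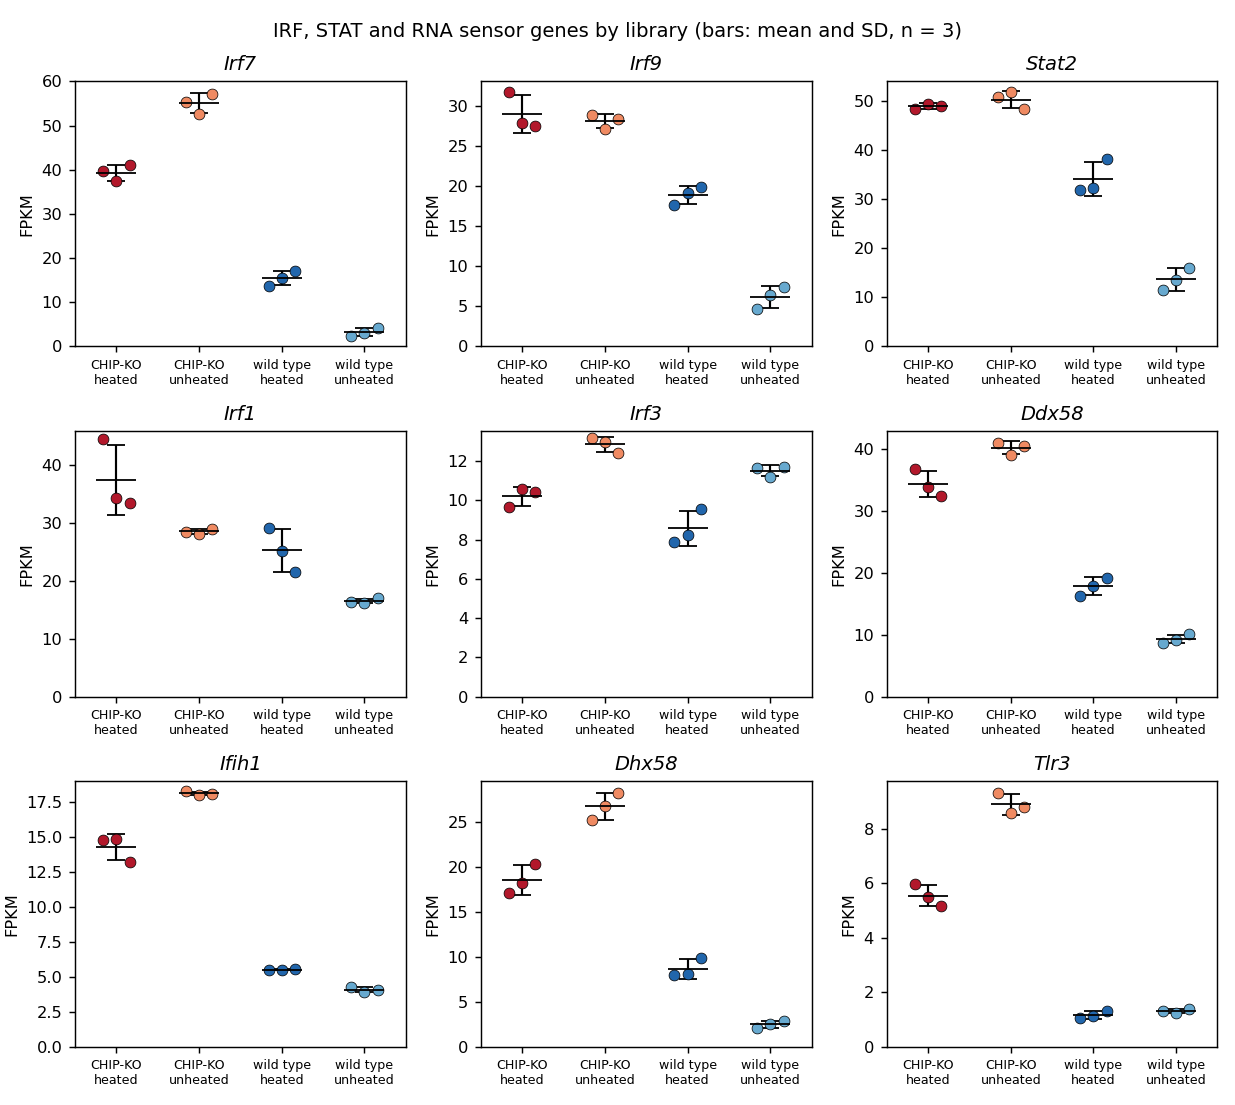
FPKM of each of the 9 genes in every library, in 4 groups of 3 libraries per panel; points are libraries (replicates 1, 2 and 3 from left to right), horizontal bars are means and whiskers are SD. Irf7 stands at 52.7 to 57.1 FPKM in unheated CHIP-KO and 2.35 to 4.23 FPKM in unheated wild type, and heated wild type has a mean between those of unheated wild type and unheated CHIP-KO for every gene except Irf3 and Tlr3.

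The second comparison asked how wild-type cells changed with heat. Of the 9 genes 7 were higher in heated cells and 1 was lower at a limma adjusted p under 0.05, where 28.1% of tested genes were called higher and 30.5% lower, 58.7% in all. The libraries did not overlap for those same 8 genes, while 29.3% of tested genes had heated libraries above and 31.1% had them below. The median log2 change was 0.87, against -0.02 over all genes tested. Unheated wild-type libraries enter this comparison and the previous one, so the 2 sets of changes are not independent.

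Irf7 had 13.8, 15.6 and 17.1 FPKM in heated wild-type cells, against 2.35, 3.14 and 4.23 FPKM in unheated wild-type cells, and its log2 change was 1.98 (SE 0.13, limma adjusted p = 5.17e-07). Irf9 stood at 17.7, 19.1 and 19.9 FPKM in heated wild-type cells, against 4.72, 6.42 and 7.40 FPKM in unheated wild-type cells, with a log2 difference of 1.49 (SE 0.12, limma adjusted p = 1.70e-06). Stat2 had 31.9, 32.2 and 38.0 FPKM in heated wild-type cells, against 11.4, 13.5 and 15.9 FPKM in unheated wild-type cells, with a log2 difference of 1.27 (SE 0.10, limma adjusted p = 1.86e-06). Every heated library lay above every unheated one for these 3 genes.

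Irf1, which is known for rapid and transient induction, rose in heated wild-type cells to 29.0, 25.0 and 21.6 FPKM, against 16.3, 16.1 and 16.9 FPKM without heat (log2 change 0.58, SE 0.11, limma adjusted p = 0.00112). Its heated libraries were spread more widely than its unheated ones. Irf3 was the gene that fell, to 7.90, 8.25 and 9.57 FPKM in heated wild-type cells against 11.7, 11.2 and 11.7 FPKM in unheated ones (log2 change -0.39, SE 0.07, limma adjusted p = 3.80e-04).

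The cytosolic sensors rose by unequal amounts in heated wild-type cells. Dhx58 stood at 7.98, 8.09 and 9.89 FPKM in heated cells, against 2.04, 2.55 and 2.86 FPKM unheated, a log2 change of 1.47 (limma adjusted p = 7.57e-07). Ddx58 stood at 16.3, 18.0 and 19.2 FPKM in heated cells, against 8.67, 9.23 and 10.1 FPKM unheated, a log2 change of 0.87 (limma adjusted p = 2.42e-06). Ifih1 moved least of the 3, with 5.46, 5.51 and 5.57 FPKM in heated cells against 4.27, 3.94 and 4.03 FPKM unheated, a log2 change of 0.36 (limma adjusted p = 1.43e-04). With a pseudocount of 5 the wild-type heat changes were 1.32 for Irf7 and 0.87 for Dhx58. With each library set to the same total, here the FPKM sum, they were 0.16 for Ifih1, 0.35 for Irf1 and -0.61 for Irf3. All of these were still called. Tlr3 had 1.05, 1.13 and 1.31 FPKM in heated wild-type cells against 1.29, 1.23 and 1.39 FPKM in unheated ones. Its groups overlapped, and its log2 change of -0.09 (95% interval -0.24 to 0.061) missed the threshold at limma adjusted p = 0.281, with 101 to 154 fragments behind each wild-type value. It was called lower under quantile normalization (-0.35, limma adjusted p = 0.00233) and with each library set to the same total (-0.22, limma adjusted p = 0.0193).

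In CHIP-KO cells the same heat gave a different pattern. Of the 9 genes 1 was higher and 5 were lower in heated cells at a limma adjusted p under 0.05, where 8.65% of tested genes were called higher and 11.4% lower, 20.0% in all. Heated libraries lay above every unheated library for 1 gene and below for 6, a pattern seen in 22.8% and 25.9% of tested genes. The median log2 change was -0.31, against -0.0018 over all genes tested, and no change of the 9 reached 2-fold. Without heated CHIP-KO replicate 1, which was unlike its group, 5 of the 9 were called. With each library set to the same FPKM total the falls were larger, from -0.62 for Irf3 and -0.64 for Ifih1 to -0.89 for Tlr3. That scaling put the median of all genes at -0.288. Relative to that median the changes were -0.329 for Irf3, -0.356 for Ifih1 and -0.605 for Tlr3. As fitted they were -0.303, -0.322 and -0.596 relative to the median, so most of the larger falls was a shift of all genes.

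Of the 5 genes that fell, 3 were RNA sensors. Tlr3 had 5.96, 5.50 and 5.17 FPKM in heated CHIP-KO cells, against 9.32, 8.57 and 8.78 FPKM in unheated CHIP-KO cells, with a log2 difference of -0.60 (SE 0.07, limma adjusted p = 2.67e-04). Dhx58 had 17.1, 18.2 and 20.4 FPKM in heated CHIP-KO cells, against 25.3, 26.8 and 28.3 FPKM in unheated ones, with a log2 difference of -0.51 (SE 0.10, limma adjusted p = 0.00623). Ifih1 had 14.8, 14.8 and 13.2 FPKM in heated CHIP-KO cells, against 18.2, 18.0 and 18.0 FPKM in unheated ones, with a log2 difference of -0.32 (SE 0.05, limma adjusted p = 0.00174). In each of these sensors the heated and unheated libraries were fully separated. Ddx58 was separated too, at 36.8, 34.0 and 32.5 FPKM in heated CHIP-KO cells against 41.1, 39.1 and 40.6 FPKM in unheated ones. Its log2 change of -0.22 lay at the threshold with limma adjusted p = 0.0502, and it was called lower in 13 of 24 alternative settings. Leaving out a single library gave limma adjusted p = 0.0419 without CHIP-KO heated replicate 1, 0.0253 and 0.0449 without wild-type heated replicates 1 and 3, and 0.0363 and 0.0460 without wild-type unheated replicates 1 and 3.

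Among the transcription factors, Irf3 fell with heat in CHIP-KO cells as it did in wild type, to 9.67, 10.6 and 10.4 FPKM against 13.2, 13.0 and 12.4 FPKM in unheated CHIP-KO cells (log2 change -0.31, SE 0.07, limma adjusted p = 0.00795). Irf7 fell to 39.6, 37.5 and 41.0 FPKM in heated CHIP-KO cells, against 55.4, 52.7 and 57.1 FPKM in unheated ones (log2 change -0.48, SE 0.13, limma adjusted p = 0.0276). Irf1 was the gene that rose, to 44.4, 34.2 and 33.4 FPKM in heated CHIP-KO cells against 28.4, 28.1 and 29.0 FPKM in unheated ones (log2 change 0.37, SE 0.11, limma adjusted p = 0.0418). Replicate 1 was the high library of that group, and without it the Irf1 change was 0.24 at limma adjusted p = 0.123. The Irf1 call was also lost without CHIP-KO heated replicate 2 (limma adjusted p = 0.0550), each CHIP-KO unheated replicate (limma adjusted p = 0.0963 to 0.112), wild-type heated replicate 2 (limma adjusted p = 0.0529) and wild-type unheated replicates 2 and 3 (limma adjusted p = 0.0572 and 0.0555), with no filter on low values (limma adjusted p = 0.0870) and with each library set to the same total (0.04, limma adjusted p = 0.800). The Irf7 call was lost without any one of the 3 CHIP-KO heated libraries (limma adjusted p = 0.0566 to 0.0899) or the 3 CHIP-KO unheated libraries (limma adjusted p = 0.0601 to 0.0920), its log2 change staying between -0.51 and -0.44, and also with a pseudocount of 0.1 (limma adjusted p = 0.0575) or no filter (limma adjusted p = 0.0631).

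Irf9 and Stat2, the partners in the interferon-activated complex, kept overlapping groups in CHIP-KO cells. Irf9 had 31.7, 27.8 and 27.5 FPKM in heated CHIP-KO cells, against 28.8, 27.2 and 28.3 FPKM in unheated ones (log2 change 0.04, 95% interval -0.22 to 0.30, limma adjusted p = 0.841). Stat2 had 48.3, 49.4 and 49.0 FPKM in heated CHIP-KO cells, against 50.7, 51.6 and 48.2 FPKM in unheated ones (log2 change -0.04, 95% interval -0.26 to 0.18, limma adjusted p = 0.838). Both intervals leave out the log2 changes of 1.49 and 1.27 fitted for these genes in wild-type cells. With each library set to the same total, which moved the median of all genes by -0.29, Irf9 stood at -0.29 (limma adjusted p = 0.0648) and Stat2 was called lower at -0.37 (limma adjusted p = 0.0109).

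The interaction, a test of the heat change in CHIP-KO minus that in wild type, was negative for 7 of the 9 genes and positive for 0 at a limma adjusted p under 0.05, where 17.3% of tested genes were called negative and 35.2% in either direction. A negative value means a change that was less positive in CHIP-KO cells. Its median over the 9 genes was -1.09, against -0.0029 over all genes tested. Irf7 had the largest value of the 9 at -2.45 (SE 0.19, limma adjusted p = 4.31e-06), which ranked 16th in size of 13023 genes, and Dhx58 followed at -1.98 (SE 0.15, limma adjusted p = 3.43e-06). Irf9 stood at -1.44, Stat2 at -1.30, Ddx58 at -1.09, Ifih1 at -0.68 and Tlr3 at -0.51. Irf1 and Irf3 missed the threshold, at -0.21 (95% interval -0.56 to 0.14, limma adjusted p = 0.337) and 0.09 (95% interval -0.12 to 0.29, limma adjusted p = 0.504), the Irf3 value turning to -0.0098 with each library set to the same total and to -0.028 with library weights. Irf1 was called higher and Irf3 lower with heat in both genotypes, with no difference between genotypes that this design resolved. With replicate 1 of both wild-type groups left out, the interaction was still called for 7 of the 9 genes. Of the called values, Tlr3 missed the threshold under quantile normalization (-0.22, limma adjusted p = 0.136).

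**Figure D3:**
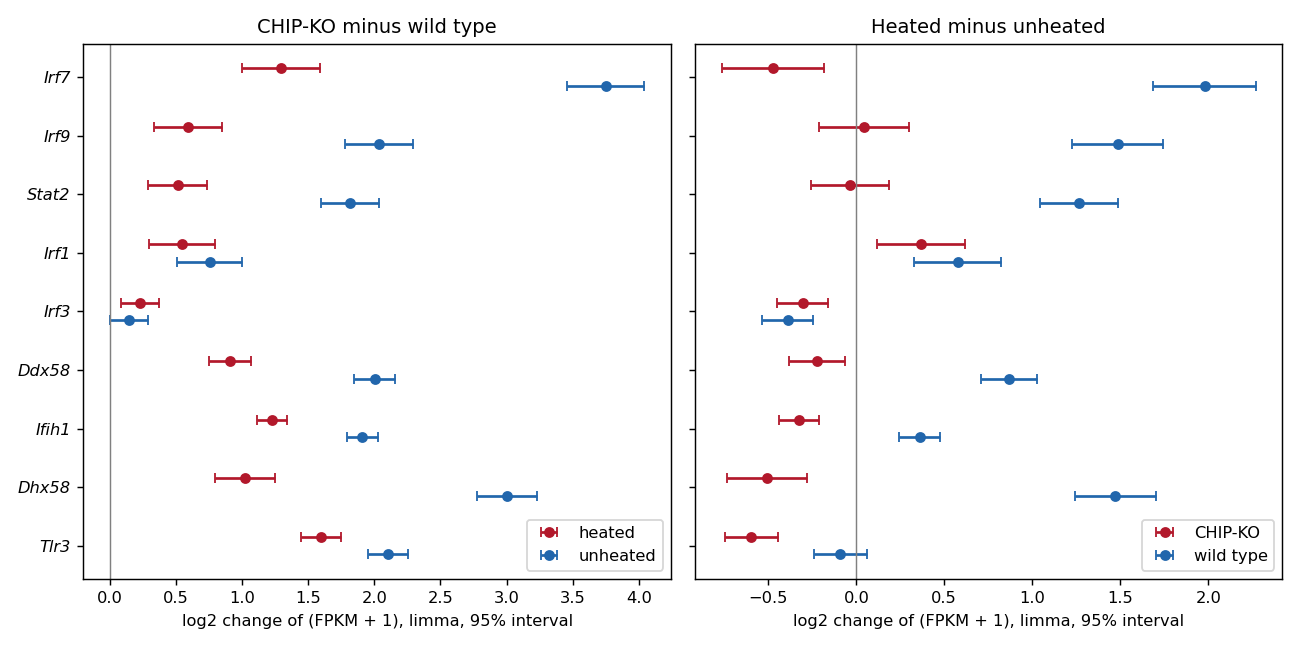
Fitted log2 changes of (FPKM + 1) for the 9 genes with 95% intervals, as CHIP-KO minus wild type (left; red heated, blue unheated) and as heated minus unheated (right; red CHIP-KO, blue wild type). The genotype difference of Irf7 is 1.29 heated and 3.75 unheated, and its change with heat is -0.48 in CHIP-KO and 1.98 in wild type.

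**Figure D4:**
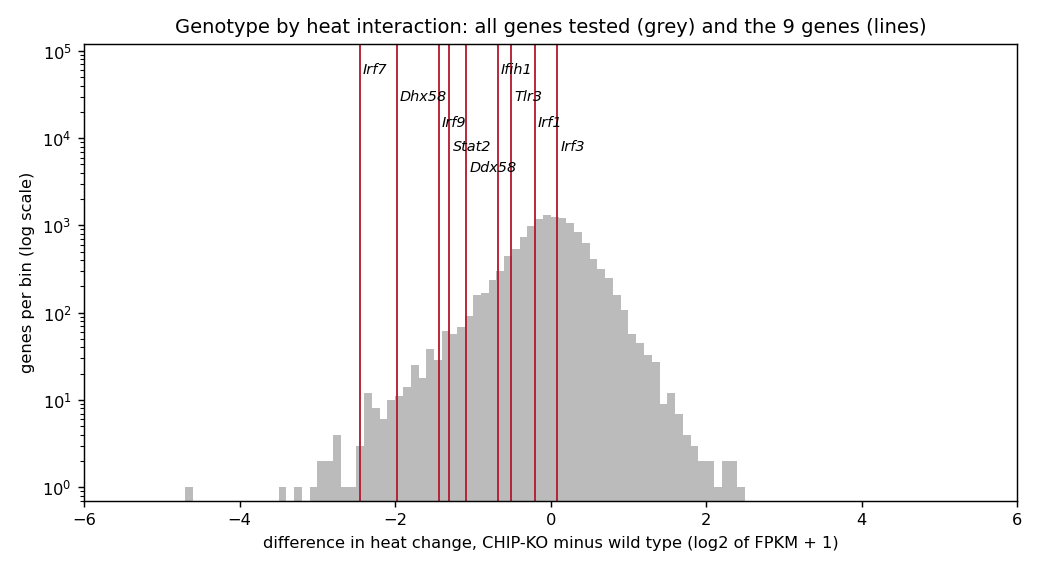
Distribution of the genotype by heat interaction over 13023 genes (grey, 0.1-wide bins, genes on a log scale), with the 9 genes as red lines. Irf7 at -2.45 and Dhx58 at -1.98 lie in the left tail, while Irf1 at -0.21 and Irf3 at 0.09 lie in the body of the distribution.

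After heat, genotypes still differed for all 9 genes, though by less than without heat for most. All 9 were higher in heated CHIP-KO cells than in heated wild-type cells at a limma adjusted p under 0.05, where 23.3% of tested genes were called higher and 42.4% in either direction. For none of the 9 did the genotypes overlap, while over all tested genes CHIP-KO lay above wild type in 27.7% and below it in 22.7%. The median log2 change was 0.91, against 0.01 over all genes tested. Tlr3 had the largest fitted change, with 5.96, 5.50 and 5.17 FPKM in heated CHIP-KO cells against 1.05, 1.13 and 1.31 FPKM in heated wild-type cells, with a log2 difference of 1.59 (SE 0.07, limma adjusted p = 1.58e-08). That rank depends on the pseudocount: with 5 in place of 1 the change was 0.77 for Tlr3 and 1.12 for Irf7, and voom on the recovered fragments gave 2.18 for Tlr3. Irf7 followed at 1.29 (39.4 ± 1.80 FPKM in heated CHIP-KO against 15.5 ± 1.68 FPKM in heated wild type, SD, n = 3 each, limma adjusted p = 1.58e-05), then Ifih1 at 1.23, Dhx58 at 1.02 and Ddx58 at 0.91. Irf9 at 0.59, Irf1 at 0.55 and Stat2 at 0.51 were closer, with Stat2 at 48.9 ± 0.550 FPKM in heated CHIP-KO against 34.0 ± 3.47 FPKM in heated wild type (SD, n = 3 each). Irf3 had the smallest fitted change, with 10.2 ± 0.483 FPKM in heated CHIP-KO against 8.57 ± 0.877 FPKM in heated wild type (SD, n = 3 each), a log2 change of 0.23 (limma adjusted p = 0.0142). That call was lost without CHIP-KO heated replicate 2 (limma adjusted p = 0.0552), and 4 of 24 alternatives in all lost it.

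The order of levels within a group, which FPKM allows because it is scaled to gene length, shifted between groups. In unheated wild-type cells Irf1 led at 16.5 ± 0.409 FPKM, followed by Stat2 at 13.6 ± 2.26, Irf3 at 11.5 ± 0.270 and Ddx58 at 9.32 ± 0.704 FPKM, with Irf7 seventh at 3.24 ± 0.942 FPKM (SD, n = 3). The ranges of Stat2 and Irf3 overlapped there, as did those of Ifih1, Irf7 and Dhx58 in turn. In unheated CHIP-KO cells Irf7 led at 55.1 ± 2.23 FPKM, followed by Stat2 at 50.2 ± 1.75 and Ddx58 at 40.3 ± 1.04 FPKM, and these 3 ranges were apart. Irf1, Irf9 and Dhx58 came next with overlapping ranges at 28.5 ± 0.446, 28.1 ± 0.860 and 26.8 ± 1.48 FPKM. In heated CHIP-KO cells Stat2 led, apart from Irf7, Irf1 and Ddx58, whose ranges overlapped in turn, and Irf9, Dhx58, Ifih1, Irf3 and Tlr3 followed with separate ranges. In heated wild-type cells Stat2 led before Irf1, then came Irf9, Ddx58 and Irf7 with ranges that overlapped in turn, then Dhx58 and Irf3 with overlapping ranges, then Ifih1 and Tlr3. As a share of the unheated CHIP-KO mean, Irf1 stood at 88.5% in heated and 57.8% in unheated wild-type cells, Stat2 at 67.8% heated and 27.2% unheated, and Irf9 at 67.2% heated and 22% unheated. The sensors and Irf7 stayed further below, with Ddx58 at 44.3% heated and 23.1% unheated, Dhx58 at 32.3% heated and 9.27% unheated, Ifih1 at 30.5% heated and 22.6% unheated, and Irf7 at 28.1% heated and 5.88% unheated. For Irf3 and Tlr3 the share was lower with heat, at 66.7% heated and 89.6% unheated for Irf3 and at 13.1% heated and 14.7% unheated for Tlr3. Tlr3 was last in all 4 groups, at 5.54 ± 0.394 FPKM in heated and 8.89 ± 0.386 FPKM in unheated CHIP-KO cells, and 1.17 ± 0.133 FPKM in heated and 1.30 ± 0.0837 FPKM in unheated wild-type cells.

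Over the 12 libraries the log2(FPKM + 1) values of Irf7 and Dhx58 followed each other most closely (Pearson r = 0.997), as did those of Irf9 and Stat2 (r = 0.995), Ddx58 with Irf7 (r = 0.992) and Ifih1 with Tlr3 (r = 0.977). Irf3 stood alone, its closest partner being Tlr3 at r = 0.585. These 12 points fall in 4 groups that differ in genotype, heat and depth, so the coefficients describe the group pattern and carry no test. The 5 protein-coding genes outside the 9 whose profile was most like their mean profile were Parp9 (r = 0.997), Oas2 (0.996), Parp12 (0.996), Parp14 (0.996) and Oasl2 (0.995). Parp9 stood at 20.2 FPKM in heated CHIP-KO, 27.4 in unheated CHIP-KO, 9.51 in heated wild type and 4.50 FPKM in unheated wild type.

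Several of the 9 genes overlap a neighbour, and the strand setting of the authors' counting is not given in the sources used here. Irf3 shares 1065 bases of its span with Bcl2l12 on the opposite strand (7.07 FPKM in unheated CHIP-KO and 5.05 FPKM in unheated wild type), and Irf9 shares 123 bases with Rnf31 on the same strand (8.46 FPKM in unheated CHIP-KO and 5.32 FPKM in unheated wild type). Dhx58 shares 2637 bases with the antisense RNA Dhx58os, which stayed between 0.413 and 0.959 FPKM in the 4 group means. Irf1 shares 907 bases with Gm17334 on the opposite strand. Gm17334 averaged 1.37 FPKM in heated and 0.945 FPKM in unheated CHIP-KO, and 1.82 FPKM in heated and 0.452 FPKM in unheated wild type. On the opposite strand too, Irf7 shares 45 bases with Phrf1, and Tlr3 698 bases with Gm45542, which had 0 fragments in every library. Reads from the overlapping parts cannot be assigned with certainty.

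The wider pathway was read from 8 lists. Their counts stand beside the shares of all tested genes called in either direction, which were 42.4% between genotypes after heat, 48.5% between genotypes without heat, 20.0% for heat in CHIP-KO, 58.7% for heat in wild type and 35.2% for the interaction. Interferon ligands came first, and none of 21 ligand genes passed the filter on low values. Their summed recovered fragments were 28, 16 and 18 in heated CHIP-KO libraries, 11, 6 and 6 in unheated CHIP-KO, 22, 26 and 21 in heated wild type and 0, 3 and 5 in unheated wild type, out of at least 15591924 per library. Ifnb1, which encodes interferon beta, had 3, 0 and 4 fragments in heated CHIP-KO libraries, 0, 2 and 2 in unheated CHIP-KO, 5, 1 and 0 in heated wild type and 0 in each unheated wild-type library, where a count of 0 allows up to 3 fragments. The summed fragments were higher in every heated library than in every unheated library of the same genotype. As raw counts they were also higher in every unheated CHIP-KO library than in every unheated wild-type library, and overlapped between the heated genotypes. The CHIP-KO libraries were deeper, however. Set against depth, unheated CHIP-KO replicate 2 (6 of 26244726 fragments) lay below unheated wild-type replicate 3 (5 of 20098901), so the unheated genotypes overlapped. On that scale every heated CHIP-KO library lay below every heated wild-type library, the closest being 28 of 26954112 against 22 of 19294361. Fragments came from 7 ligand genes in heated CHIP-KO, 4 in unheated CHIP-KO, 13 in heated wild type and 2 in unheated wild type. The sums were not tested, and counts of this size do not resolve single ligand genes.

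All 9 receptor and kinase genes that carry the interferon signal passed the filter, Ifnlr1 through wild type alone, which favours its calls as lower. Without heat 6 of 9 tested genes were higher and 1 lower in CHIP-KO cells, at a median log2 change of 0.45. The largest increase was that of Jak2, a kinase of cytokine receptors, at 13.9 ± 0.506 FPKM in unheated CHIP-KO cells against 8.55 ± 0.0999 FPKM in unheated wild-type cells (SD, n = 3 each, limma adjusted p = 5.42e-04). The lower gene, named after its values were seen, was Ifnlr1, a subunit of the interferon lambda receptor, at 0.0928 FPKM in unheated CHIP-KO cells against 1.24 FPKM in unheated wild-type cells (log2 change -1.04, limma adjusted p = 1.10e-05). With heat, 1 rose and 3 fell in CHIP-KO cells, and 7 rose and 2 fell in wild type. Ifngr1, a subunit of the interferon gamma receptor, fell to 19.7 ± 1.42 FPKM in heated against 28.7 ± 0.803 FPKM in unheated CHIP-KO cells, and Ifnar2, a subunit of the type I receptor, rose to 10.2 ± 0.354 FPKM in heated against 6.63 ± 0.338 FPKM in unheated wild-type cells. The interaction was negative for 6 and positive for 0 of the 9. After heat 3 were higher and 2 lower in CHIP-KO, and 1 higher and 2 lower once each library was set to the same total, where the median turned to -0.05 (0.02 as fitted). Without heated CHIP-KO replicate 2 the 5 called after heat became 3.

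The adaptors and kinases that lie between the sensors and IRF3 or IRF7 did not move together. Without heat 5 of 16 tested genes were higher and 7 lower in CHIP-KO cells, at a median of -0.09, and after heat 5 were higher and 3 lower. Tbkbp1, among the lower genes in both comparisons, passed the filter through wild type alone, which favours its calls as lower. It averaged 0.702 FPKM in heated and 0.580 FPKM in unheated CHIP-KO, against 3.41 FPKM in heated and 1.26 FPKM in unheated wild type. Trim25, a ubiquitin ligase that acts on RIG-I, stood at 27.3 ± 0.562 FPKM in unheated CHIP-KO cells against 10.6 ± 0.259 FPKM in unheated wild-type cells, and the antiviral cofactor gene Zc3hav1 at 39.4 ± 0.180 against 20.1 ± 0.865 FPKM. Ticam1, the TLR3 adaptor gene, stood at 11.2 ± 0.166 against 8.19 ± 1.11 FPKM (SD, n = 3 each). Mavs, the adaptor gene of RIG-I and MDA5, was among the lower genes and was named after its values were seen. It stood at 8.73 ± 0.320 FPKM in unheated CHIP-KO against 11.5 ± 0.368 FPKM in unheated wild type (SD, n = 3 each, limma adjusted p = 7.56e-04). With heat 0 rose and 4 fell in CHIP-KO, and 4 rose and 5 fell in wild type. The interaction was positive for 3 and negative for 5 genes.

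Other nucleic acid sensors moved in the directions of Ddx58, Ifih1 and Dhx58. Without heat 13 of 16 tested genes were higher and 2 lower in CHIP-KO, at a median log2 change of 1.87. Oasl2, an interferon-induced relative of the RNA-activated oligoadenylate synthetases, stood at 59.3 ± 1.58 FPKM in unheated CHIP-KO cells against 2.86 ± 0.289 FPKM in unheated wild-type cells, and Zbp1, which binds Z-form nucleic acid, at 10.7 ± 0.765 against 0.139 ± 0.112 FPKM (SD, n = 3 each). In heated wild type Zbp1 averaged 0.854 FPKM, and Unc93b1 averaged 0.386 FPKM in heated and 0.315 FPKM in unheated wild type. Zbp1 and Unc93b1 thus passed the filter on low values through CHIP-KO, where they are high, which favours their calls as higher. After heat 13 were higher and 2 lower. Heat raised 12 and lowered 1 in wild type, raised 1 and lowered 8 in CHIP-KO, and the interaction was negative for 11 and positive for 1. The 9 called for heat in CHIP-KO became 4 without heated replicate 2 or unheated replicate 3 of CHIP-KO, and 5 without unheated replicate 1 or 2. Zcchc3, a cofactor of cGAS and of RIG-I, fell with heat in both genotypes, to 1.76 ± 0.196 FPKM in heated against 5.31 ± 0.290 FPKM in unheated CHIP-KO cells and to 1.71 ± 0.255 FPKM in heated against 7.21 ± 0.677 FPKM in unheated wild-type cells.

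The remaining IRF and STAT genes were mixed between genotypes. Without heat 4 of 9 tested genes were higher and 1 lower in CHIP-KO, at a median of 0.14, and after heat 1 was higher and 2 lower. Stat6, the interleukin-4 signal transducer, was lower in CHIP-KO in both comparisons, at 8.78 ± 0.508 FPKM in heated CHIP-KO against 30.6 ± 1.83 FPKM in heated wild type, and 3.88 ± 0.147 FPKM in unheated CHIP-KO against 24.2 ± 2.26 FPKM in unheated wild type (SD, n = 3 each). Stat3 stood at 32.9 ± 0.656 FPKM in unheated CHIP-KO against 19.6 ± 0.323 FPKM in unheated wild type. Heat raised 7 and lowered 1 of the 9 in wild type and raised 2 and lowered 2 in CHIP-KO, where 2 of these 4 calls were left without heated replicate 3 or unheated replicate 3 of CHIP-KO. The interaction was negative for 3 and positive for 1.

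Negative regulators split in the same mixed way, apart from Usp18. Without heat 8 of 15 tested genes were higher and 3 lower in CHIP-KO, after heat 4 and 3. The 11 called without heat became 6 without unheated CHIP-KO replicate 1 and 7 without unheated CHIP-KO replicate 3 or any one unheated wild-type library. Usp18, an interferon-induced protease that blocks the type I receptor, stood at 51.5 ± 1.92 FPKM in unheated CHIP-KO against 1.68 ± 0.209 FPKM in unheated wild type, with an interaction of -2.33 (limma adjusted p = 4.37e-07). Socs3, a feedback inhibitor of JAK kinases, rose with heat in both genotypes, to 63.1 ± 6.31 FPKM in heated against 21.2 ± 0.930 FPKM in unheated CHIP-KO cells and to 46.1 ± 1.41 FPKM in heated against 12.5 ± 0.907 FPKM in unheated wild-type cells. Socs1 fell with heat in CHIP-KO, to 3.23 ± 0.885 against 6.79 ± 0.173 FPKM in unheated cells (SD, n = 3 each, limma adjusted p = 0.00642). In all, heat raised 2 and lowered 4 of these genes in CHIP-KO and raised 4 and lowered 4 in wild type, and the interaction was negative for 2 and positive for 0, with 4 called without heated wild-type replicate 1.

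The genes that the activated complex induces were read from a list of 19. Of these interferon-stimulated effectors 19 of 19 were higher in unheated CHIP-KO cells and 18 in heated ones, 17 rose with heat in wild type, 11 fell and 2 rose in CHIP-KO, and the interaction was negative for 18. The 13 called for heat in CHIP-KO became 7 without unheated CHIP-KO replicate 3 and 8 without heated replicate 2 or unheated replicate 1 or 2 of CHIP-KO. Of 10 tested genes linked to IRF1, which encode antigen presentation factors, guanylate-binding proteins and chemokines, 10 were higher in unheated CHIP-KO cells, and 8 were higher and 1 lower in heated ones. Among them Gbp2 stood at 35.5 ± 1.37 FPKM in heated CHIP-KO against 4.54 ± 0.377 FPKM in heated wild type, and 43.9 ± 1.63 FPKM in unheated CHIP-KO against 1.68 ± 0.262 FPKM in unheated wild type (SD, n = 3 each). Of these 10 genes 8 rose and 1 fell with heat in wild type and 4 fell in CHIP-KO, where Irf1 itself was called higher. Those 4 became 1 without heated replicate 2 or unheated replicate 3 of CHIP-KO, and 2 without heated replicate 1 or 3. Fibroblast markers moved in the same comparisons. Of 8 tested, 5 were higher and 2 lower in heated CHIP-KO cells, and 7 were higher and 1 lower in unheated ones. Of all tested genes, 42.4% were called in either direction after heat and 48.5% without heat. Thy1 and Dcn passed the filter through CHIP-KO alone, which favours their calls as higher. Dcn averaged 0.0881 FPKM in heated and 0.0153 FPKM in unheated wild type. With heat 0 rose and 1 fell in CHIP-KO and 5 rose and 0 fell in wild type, and the interaction was positive for 1 and negative for 4, at a median of -0.42. Of the leukocyte markers 2 were tested, and they went in opposite directions. Cd14 stood at 1.43 FPKM in heated CHIP-KO, 2.43 in unheated CHIP-KO, 2.14 in heated wild type and 3.66 FPKM in unheated wild type. Cd68, which other cells also express, stood at 8.85 FPKM in heated CHIP-KO, 3.72 in unheated CHIP-KO, 13.4 in heated wild type and 2.41 FPKM in unheated wild type. The part of these markers in the results was not tested.

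**Figure D5:**
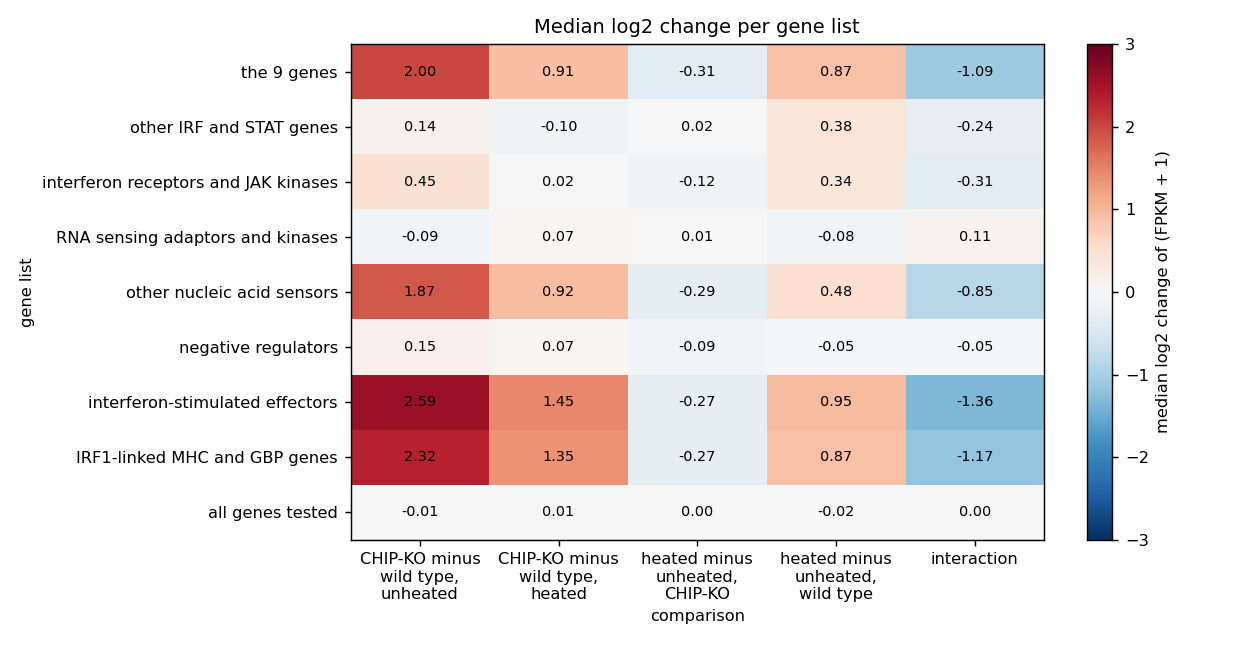
Median log2 change of (FPKM + 1) per gene list (rows) and comparison (columns), with the value printed in each cell and red for higher in CHIP-KO or after heat. The 9 genes have medians of 2.0, 0.91, -0.31, 0.87 and -1.09. Interferon-stimulated effectors, other nucleic acid sensors and genes linked to IRF1 have the same signs in each column. So do interferon receptors and JAK kinases, at only 0.02 between genotypes after heat, while RNA sensing adaptors and kinases stay near 0.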

How the data were processed

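RNA was extracted and poly(A) RNA was captured, per the labels' protocols. The authors deposited FPKM values, 1 column per library. The submitters' processing notes name HISAT2, an aligner, without a version. The counting tool, its strand setting and the scaling total are not stated there or in the labels. Multiplying FPKM by gene length gave whole steps for 100% of values above 0 (tolerance 0.01), from which the quoted fragments come; intervals and floors from them cover counting error only. Of 54532 identifiers 54495 were in GENCODE M21 and 53548 had identical positions, all 9 genes among them, so positions are on GRCm38.

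Genes with at least 1 FPKM in at least 3 of 12 libraries were tested (13023). The model (limma 3.58.1, R 4.3.3) was run on log2(FPKM + 1), with group means, a variance trend and no replicate block, two-sided, with Benjamini-Hochberg adjustment over all genes tested and a threshold of 0.05. The fit was tested on simulated data. The genes and lists were chosen with earlier results of these data known. Besides the 9 genes, Stub1 and the 5 most alike genes, the text names list genes by a rule. Up to 3 called genes per list and comparison qualified, by largest change, with a mean of at least 2 FPKM in the higher group. Ligands, markers and overlapping genes were named outside that rule, as were Ifnlr1 and Mavs. Alternatives changed the pseudocount, filter, scaling, samples fitted, weights, block and test (voom on the recovered fragments), and left out each library in turn. The same total, or equal sum, refers to the sum of FPKM values in a library, not to its fragments. Figures used matplotlib 3.10.9 in Python 3.11.15.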

Additional observations from a re-analysis of the deposited data

Results flagged for a closer look

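For 7 of the 9 genes the change with heat differed between CHIP-KO and wild-type cells by the interaction test (limma, adjusted over 13023 genes), all 7 negative, where 35.2% of tested genes were called and 17.3% were called negative. The log2 differences, CHIP-KO minus wild type, were -2.45 for Irf7, -1.98 for Dhx58, -1.44 for Irf9, -1.30 for Stat2, -1.09 for Ddx58, -0.68 for Ifih1 and -0.51 for Tlr3. Irf7, Dhx58 and Ifih1 moved in opposite directions with heat, lower in CHIP-KO and higher in wild type, each past the threshold. The Irf7 call in CHIP-KO was lost in 8 of 24 alternatives, while those of Dhx58 and Ifih1 were kept in all 24. Irf9, Stat2 and Ddx58 were higher in heated wild type and missed the threshold in CHIP-KO, and Tlr3 was lower in heated CHIP-KO and missed it in wild type.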

How the results depend on the processing

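Over up to 24 alternatives per result, 1017 of 1066 values for the 9 genes kept their direction and side of the threshold, 23 lost the call, 20 gained one and 6 changed sign, none of these 6 being called. Leaving out a library of a group outside a pairwise comparison changes only the shared estimate of spread. The direction was fixed in advance in those settings, which are part of the count. The signs that changed were Irf9 with heat in CHIP-KO (0.04 as reported, -0.022 to 0.078 over single left-out libraries, the lowest without CHIP-KO heated replicate 1, -0.29 with an equal sum per library and -0.045 with voom on recovered fragments), Tlr3 with heat in wild type (-0.09 as reported, 0.0077 with library weights) and the Irf3 interaction (0.09 as reported, -0.0098 with an equal sum and -0.028 with library weights); the cause was not tested. An equal sum put the median of all genes at -0.29 with heat in CHIP-KO and -0.21 in wild type, against -0.0018 and -0.016 as reported. Relative to the equal-sum median Irf1 stood at 0.33, Irf9 at 0.0017 and Stat2 at -0.08 in CHIP-KO. Called members ranged over single left-out libraries from 8 to 9 without heat, 8 to 9 heated, 4 to 7 for heat in CHIP-KO, 8 to 8 for heat in wild type and 7 to 7 for the interaction. The ranges over all genes were 5325 to 6853, 4635 to 6042, 1592 to 3462, 7033 to 7622 and 3793 to 4870. For heat in CHIP-KO 2607 genes were called, against 1578 with a mean of at least 5 FPKM (fewer genes tested), 8725 with an equal sum (567 higher and 8158 lower, against 1126 and 1481), 4043 with these groups alone, 6201 with library weights, 3913 with voom (906 higher and 3007 lower) and 4414 without both wild-type replicates 1. Library weights also gave 8590 genes against 5525 for genotypes after heat and 7403 against 4581 for the interaction, and the filter at 5 FPKM gave 5087 against 7640 for heat in wild type. With an equal sum the split was 2388 higher and 6168 lower for heat in wild type (3664 and 3976 as reported), 2347 and 3044 for genotypes after heat (3033 and 2492), and 1765 positive and 2861 negative for the interaction (2328 and 2253); voom gave 2433 and 3166 for genotypes after heat. Of the list counts, 790 of 833 stayed within 1.5 times. Tlr3 was not tested with the filter at 5 FPKM. Deviations of same-numbered libraries correlated at -0.12 to 0.33 over the 4 comparisons, not above 0.1 in every pair of any of them, and 1, 2, 0 and 0 of 3 libraries correlated best with their own number, so the numbers were not taken as pairs; with the replicate block 8, 9, 6, 8 and 7 of the 9 genes were called, the counts without it, among 6299, 5525, 2606, 7637 and 4583 genes. Depth limits Tlr3 and Dhx58 most, at 101 and 105 fragments in their lowest wild-type library.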

Other observations

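In wild type the same library was often the lowest or highest for several of the 9 genes, a count not set against all genes. Replicate 1 was the lowest library for 8 of the 9 genes in heated wild type and for 5 of 9 in unheated wild type, while replicate 3 was the highest for 8 of 9 in both. In heated CHIP-KO the lowest library was replicate 1, 2 and 3 for 3, 1 and 5 genes and the highest for 4, 3 and 2 genes. In unheated CHIP-KO replicate 2 was the lowest for 6 of 9. The coefficient of variation over 3 libraries had a median of 6.46% in heated CHIP-KO, 3.10% in unheated CHIP-KO, 10.2% in heated wild type and 7.55% in unheated wild type, and it was highest for Irf7 in unheated wild type at 29.1%.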
